A study of Mus musculus with 6 samples.

Results

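Transcript levels of 10 genes that release arachidonic acid from membrane phospholipid and turn it into prostaglandins and leukotrienes were examined in mouse heart ventricles. The genes were Pla2g5, Pla2g4a, Ptgs1, Ptgs2, Ptgis, Ptges, Ptgds, Alox5ap, Ltc4s and Hpgd. They were taken from 20145 genes named on the arrays, through every probe whose RefSeq accession belongs to them, which gave 13 probes. Pla2g5 was chosen by its measured values, being much lower in Tead1 icKO hearts on these same arrays, so its values are a description without a test. Tead1 encodes a DNA-binding transcription factor that acts with the coactivators YAP and TAZ.

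The samples were 3 Tead1 icKO and 3 control hearts, each on its own one-colour Agilent array, from male C57bl/6j mice aged 11 to 12 weeks. The Tead1 icKO mice were Tead1F/F, carried Myh6-CreER and received tamoxifen. The Myh6 promoter is active in cardiomyocytes, so the deletion is aimed at these cells and not at the other cells of the ventricle. The control mice carried floxed Tead1 and also received tamoxifen, and the labels name no Cre in them. Loss of Tead1 and presence of Cre therefore cannot be told apart. Levels below are log2 signals relative to the 75th percentile of the same array, so 0 is the signal of a fairly bright probe, and levels of different genes cannot be set against each other.

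Phospholipases of the A2 type cut arachidonic acid from the middle position of membrane phospholipids. Pla2g4a encodes the cytosolic, calcium-activated enzyme of this group, and Pla2g5 a small secreted one known to be abundant in heart. The cyclooxygenases, encoded by Ptgs1 and Ptgs2, make prostaglandin H from the free acid, and terminal synthases turn this intermediate into the prostanoids that act on receptors of neighbouring cells. The other main route runs through 5-lipoxygenase and its partner protein, encoded by Alox5ap, to the leukotrienes. In heart, prostacyclin comes mainly from vascular and stromal cells and leukotrienes mainly from leukocytes.

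The sequences shown are those upstream of Pla2g5, whose probes differed most between the groups, and of Ptges, the other gene of the list in which the searched motif was found. The motif was GGAATG, the core of the MCAT element that TEAD factors bind, on either strand (CATTCC on the other). It does not overlap another motif searched here. Each line gives the 250 bases before an annotated transcript start, read 5′ to 3′ on the gene's strand, from RefSeq on GRCm38.p6, with the motif in capitals.
Pla2g5, chr4:138863470-138863719 (minus strand): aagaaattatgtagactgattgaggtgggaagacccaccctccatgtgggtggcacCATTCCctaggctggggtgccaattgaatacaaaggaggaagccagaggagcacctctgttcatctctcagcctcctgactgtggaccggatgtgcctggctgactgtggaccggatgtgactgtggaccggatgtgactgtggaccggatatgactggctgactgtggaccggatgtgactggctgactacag
Pla2g5, chr4:138819258-138819507 (minus strand): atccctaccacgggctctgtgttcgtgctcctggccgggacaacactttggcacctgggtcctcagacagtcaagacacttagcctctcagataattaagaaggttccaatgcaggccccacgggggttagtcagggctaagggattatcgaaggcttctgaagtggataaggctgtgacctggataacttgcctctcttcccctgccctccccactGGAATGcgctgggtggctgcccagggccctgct
Ptges, chr2:30903298-30903547 (minus strand): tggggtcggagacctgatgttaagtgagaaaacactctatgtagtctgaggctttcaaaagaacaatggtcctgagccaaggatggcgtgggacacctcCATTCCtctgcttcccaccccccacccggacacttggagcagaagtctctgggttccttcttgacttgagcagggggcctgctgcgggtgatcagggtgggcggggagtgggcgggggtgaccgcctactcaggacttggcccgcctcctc
The first Pla2g5 window held 1 match that began 194 bases before the start, the second 1 match at 33 bases, and the Ptges window 1 match at 151 bases. The reference table held 10 windows for 8 of the 10 genes, and 3 of these windows had a match. Among all 32851 windows of this length in the table, 12.6% had one. A match of 6 letters describes the sequence and is not a measured binding site.

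Across all features, named or not, 44.8% passed the test between Tead1 icKO and control hearts (limma, Benjamini-Hochberg adjusted over 22295 features, threshold 0.05), 16.0% being higher and 28.7% lower in Tead1 icKO. Among the 12981 named genes tested, 48.2% passed, 20.3% being higher and 27.9% lower. Of the 10 genes, 9 had a probe well above background on all arrays of a group. The exception was Ptgs2. Of the 8 tested genes other than Pla2g5, Pla2g4a, Ptgis, Alox5ap and Hpgd rose, Ptges fell, and Ptgs1, Ptgds and Ltc4s did not pass. This gives 5 of 8 called, and these 5 were also the genes whose groups did not overlap, which was so for 59.3% of all features. The median log2 difference of the 8 genes was 0.76, beside -0.14 over all features, and 8 genes are too few to set their share called apart from the background.

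**Figure D1:**
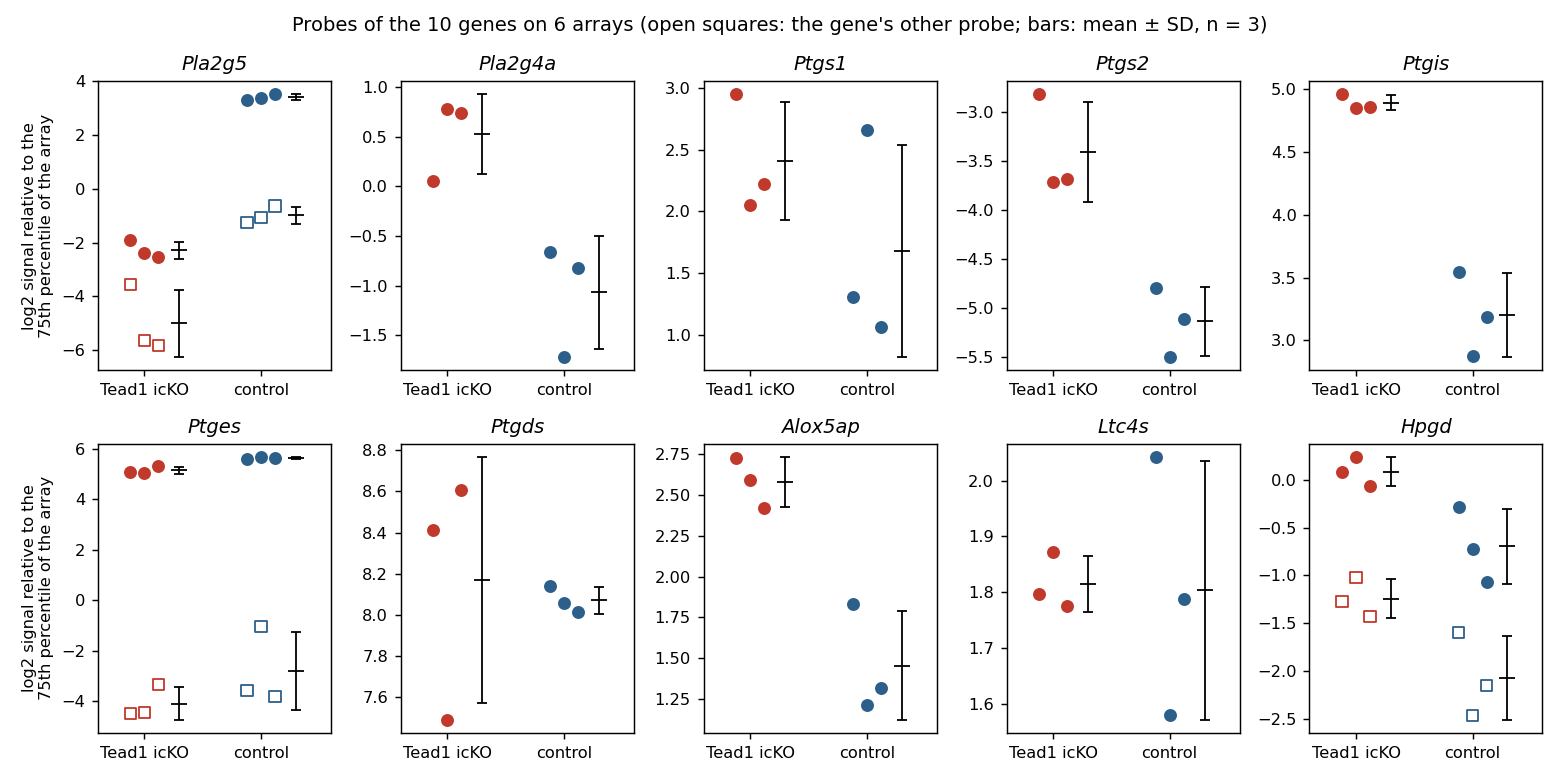
Each panel plots the log2 signal of 1 gene, relative to the 75th percentile of the array, for the 3 Tead1 icKO hearts on the left and the 3 control hearts on the right, with mean ± SD. Open squares are a gene's other probe. Pla2g5 lies between -2.53 and -1.92 in Tead1 icKO and between 3.33 and 3.53 in control, while Ptgs1 and Ptgds overlap.

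All 6 arrays shared 1 slide and 1 scan. Control 1 to 3 lay in slide columns 1, 1 and 2, and Tead1 icKO 1 to 3 in columns 2, 3 and 3. Slide column and group are thus largely confounded. On each array, 47.9% to 50.9% of the probes were well above background and 0 spots were saturated. Arrays correlated at 0.987 to 0.992 within a group and at 0.947 to 0.958 between groups. The brightest of 3 Tead1 probes had 3.66, 3.44 and 3.46 in Tead1 icKO, against 4.01, 3.79 and 3.96 in control (difference -0.40 ± 0.11, SE; limma adjusted p = 0.030). The other probes differed by -0.43, without overlap, and by -0.19, with groups that overlapped. The call of the first was lost under several settings, among them scaling to spike-in probes (-0.05, adjusted p = 0.772). Where the probes lie relative to the deleted exons is not known here, so they are no check of the labels. Markers of several cell types moved with the groups under the main scaling. The 75th percentile used for it was 292 to 348 signal units in Tead1 icKO hearts and 189 to 233 in control hearts. With spike-in scaling the median log2 difference of all features was 0.21 in place of -0.14. The marker counts and sums below were made under the main scaling alone. Of 10 cardiomyocyte markers 0 rose and 8 fell, with summed linear signals (in units of the 75th percentile) of 5797 to 6419 in Tead1 icKO and 8878 to 10810 in control. Of 11 tested macrophage markers 9 rose and 0 fell, with sums of 136 to 162 in Tead1 icKO and 74.1 to 93.7 in control. Of 12 fibroblast markers 9 rose and 0 fell, with sums of 627 to 746 in Tead1 icKO and 243 to 389 in control. Other lists were mixed. Of 10 endothelial markers 1 rose and 3 fell, with sums of 243 to 316 in Tead1 icKO and 223 to 242 in control. These sums include Vwf, the 1 that rose, which differed by 2.14, while the median log2 difference of the list was -0.21. The 10 markers of smooth muscle and pericytes included 2 that rose and 5 that fell, with sums of 111 to 124 in Tead1 icKO and 150 to 179 in control. Of 8 tested platelet and erythrocyte markers 3 rose and 0 fell, all 3 erythrocyte genes (Hbb-bt, Alas2 and Slc4a1), with sums of 964 to 2174 in Tead1 icKO and 513 to 915 in control. Of 6 tested epicardial and mesothelial markers 1 rose and 0 fell, with sums of 5.77 to 10.6 in Tead1 icKO and 3.91 to 6.61 in control. In bulk tissue, a change in the number of cells of a type and a change in RNA per cell cannot be told apart.

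Pla2g5, on chromosome 4 (138799247 to 138863562 in GRCm38.p6), differed most among the 10 genes. Its brighter probe had -1.92, -2.39 and -2.53 in Tead1 icKO hearts, against 3.33, 3.38 and 3.53 in control hearts. In processed signal units this was 82.2, 66.3 and 50.6 in Tead1 icKO, against 1895, 2423 and 2478 in control. Every control heart was far above every Tead1 icKO heart, and the spread within each group was small beside the gap. The probe averaged -2.28 ± 0.32 in Tead1 icKO and 3.41 ± 0.10 in control (SD, n = 3 each), a log2 difference of -5.69 ± 0.17 (SE). The control mean was thus 51.7-fold the Tead1 icKO mean, and the probe was still well above background on all 3 Tead1 icKO arrays.

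The other Pla2g5 probe, which stands for another RefSeq transcript of the gene, was dimmer and gave the same direction. It had -3.57, -5.64 and -5.83 in Tead1 icKO hearts, against -1.26, -1.05 and -0.64 in control hearts. It was not well above background on any Tead1 icKO array, so only a bound can be given. It was at least 7.01-fold dimmer in Tead1 icKO. The bound was set by the lowest signal well above background on Tead1 icKO 2 and 3, and by the probe's own signal on Tead1 icKO 1. With normexp background correction, which models the local background and adds an offset, the difference of the brighter probe was -4.61, and leaving out each array in turn gave -5.87 to -5.57. Of the 10 cardiomyocyte markers, 8 fell under the main scaling, by far less than Pla2g5 differed. Tnni3, a troponin subunit, differed by -1.03 and Myh6, the main adult myosin heavy chain, by -0.69, while Ryr2, the calcium release channel, differed by 0.05 (adjusted p = 0.720) and Actn2, the Z-disc actinin, by 0.10 (adjusted p = 0.488). Their part in the Pla2g5 difference was not tested.

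Among named genes measured in both groups, Igsf1 (-5.70), an immunoglobulin superfamily protein, Scn4b (-5.53), a sodium channel beta subunit, and Colq (-5.42), the collagen tail of acetylcholinesterase, had log2 differences near that of Pla2g5. Meig1, Pdzd3 and Tmprss13 were not well above background in any Tead1 icKO heart and were at least 33.4-fold, 29.7-fold and 12.7-fold dimmer there. With normexp their log2 differences were -3.34, -3.24 and -2.08, smaller in size than the log2 bounds of 5.06, 4.89 and 3.67. The bounds thus depend on the background method, and the 3 genes cannot be ranked against Pla2g5.

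Genes with provisional symbols (Gm, LOC, Rik or clone names) were left out of the search for like profiles. Among the other named genes, those whose centred profile over the 6 arrays was nearest to that of Pla2g5 were Scn4b, Colq, Igsf1, Slc36a2 and Scgb1c1. The root mean square distance from Pla2g5, in log2 units, was 0.16 for Scn4b, 0.35 for Colq, 0.36 for Igsf1, 0.38 for Slc36a2 and 0.42 for Scgb1c1. With 3 hearts a group, this distance is set mostly by the size of the group difference.

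**Figure D2:**
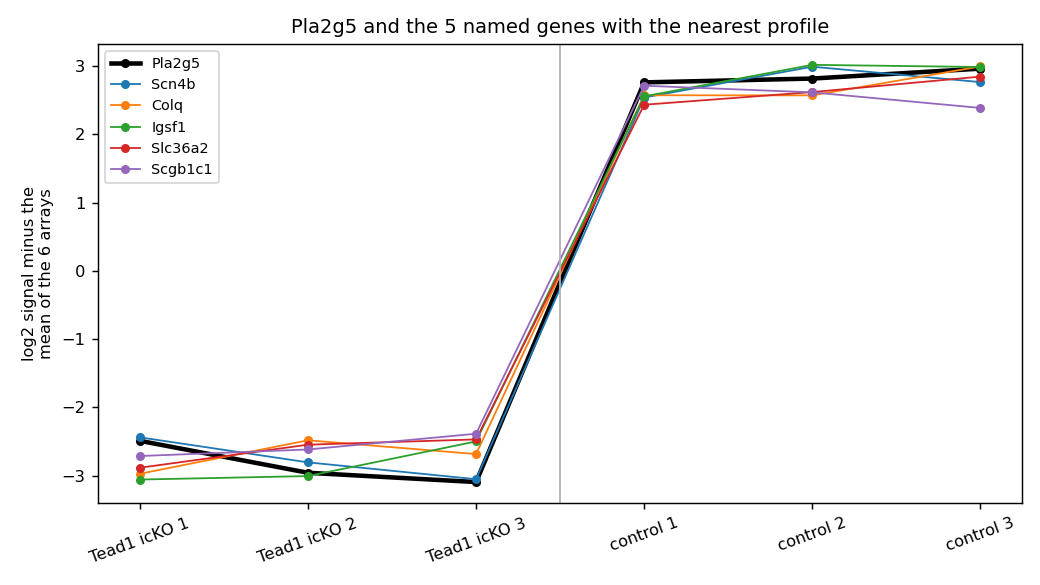
The log2 signal of Pla2g5 (thick black line) and of the 5 named genes nearest to it, provisional symbols left out, is plotted for each array. Each gene's mean over the 6 arrays was subtracted. Tead1 icKO hearts are on the left and control hearts on the right. Scn4b, at a distance of 0.16, follows Pla2g5 most closely.

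The reference annotation places Pla2g2d, another secreted phospholipase A2 gene, beside Pla2g5 on chromosome 4. Pla2g2d had -3.52, -2.59 and -2.91 in Tead1 icKO hearts, against -1.87, -2.15 and -2.07 in control hearts, and was well above background on 2 of 3 Tead1 icKO arrays. The groups did not overlap, and Pla2g2d fell by 0.97 ± 0.24 on the log2 scale (SE; limma adjusted p = 0.0184). The size and the adjusted p rest partly on a Tead1 icKO signal that was not well above background. Leaving out control 1 ended that call (adjusted p = 0.0598), as did scaling to the array median (-0.82, adjusted p = 0.0579) or to spike-in probes (-0.62, adjusted p = 0.0896). The other kept Pla2g2d probe had a fitted difference of -1.50, but was well above background on 0 of 3 Tead1 icKO arrays. Gm32871 on the same side, and Gm25280 and Pla2g2a, whose annotated positions lie within the Pla2g5 span, were not analysed here. The annotation lists Pla2g2a as a transcribed pseudogene.

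Pla2g4a, the cytosolic phospholipase A2 gene, moved the opposite way. It had 0.06, 0.78 and 0.74 in Tead1 icKO hearts, against -0.66, -1.72 and -0.82 in control hearts. All Tead1 icKO values lay above all control values, although control 2 was about 1 log2 unit below the other controls. Pla2g4a rose by 1.59 ± 0.33 on the log2 scale (SE; limma adjusted p = 0.0101; 95% interval 0.80 to 2.39), which is 3.01-fold. With the slide column of each array as a block, the difference was 0.88 (adjusted p = 0.311). Columns 1 and 3 each hold hearts of 1 group, so a difference under this block is that of Tead1 icKO 1 from control 3 alone. By the same search, the named genes with the nearest profiles were Scml4, Cpxm2 and B3galt2, at distances of 0.16, 0.17 and 0.17.

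The cyclooxygenase genes could not be called. Ptgs1, the constitutive enzyme, had 2.95, 2.05 and 2.22 in Tead1 icKO hearts, against 1.31, 2.66 and 1.07 in control hearts. Control 2 lay above 2 of the 3 Tead1 icKO hearts, and the groups overlapped. The log2 difference was 0.73 ± 0.45 (SE; limma adjusted p = 0.230), with a 95% interval of -0.36 to 1.82. Without control 2 it was 1.22 (adjusted p = 0.0262). Within row 1 of the slide the difference was 0.86 and within row 2, which holds control 2, it was -0.07.

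Ptgs1 is the cyclooxygenase of platelets, and platelet genes also stood out on single arrays. Gp9, a platelet glycoprotein gene, had 2.77, -2.36 and -1.80 in Tead1 icKO hearts, against -2.43, -1.20 and -1.97 in control hearts. Treml1, a receptor of platelet granules, had 2.53, -1.77 and -1.42 in Tead1 icKO hearts, against -2.30, -1.02 and -1.68 in control hearts. Both were thus far higher in Tead1 icKO 1 than on any other array, and within the controls both were highest in control 2. Ppbp, a chemokine of platelets, followed the same order, with 2.13, -2.10 and -1.75 in Tead1 icKO, against -1.88, -0.04 and -1.19 in control. Alox12, the platelet-type 12-lipoxygenase, had 1.59, -0.43 and 0.04 in Tead1 icKO, against -1.09, -0.48 and -0.05 in control. Of the platelet markers, 4 were tested and 0 passed, while Itga2b and Gp1ba were too dim. Their summed signal was 51.2, 20.5 and 21.1 in Tead1 icKO, against 18.7, 14.1 and 13.1 in control. Pf4, a platelet chemokine that makes up most of this sum, had 5.10, 4.31 and 4.33 in Tead1 icKO, against 4.17, 3.61 and 3.60 in control. Pf4 and the sum were thus highest in Tead1 icKO 1 but, among controls, in control 1, and Alox12 was highest among controls in control 3, unlike Ptgs1. The part of platelet RNA in the Ptgs1 values was not tested.

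**Figure D3:**
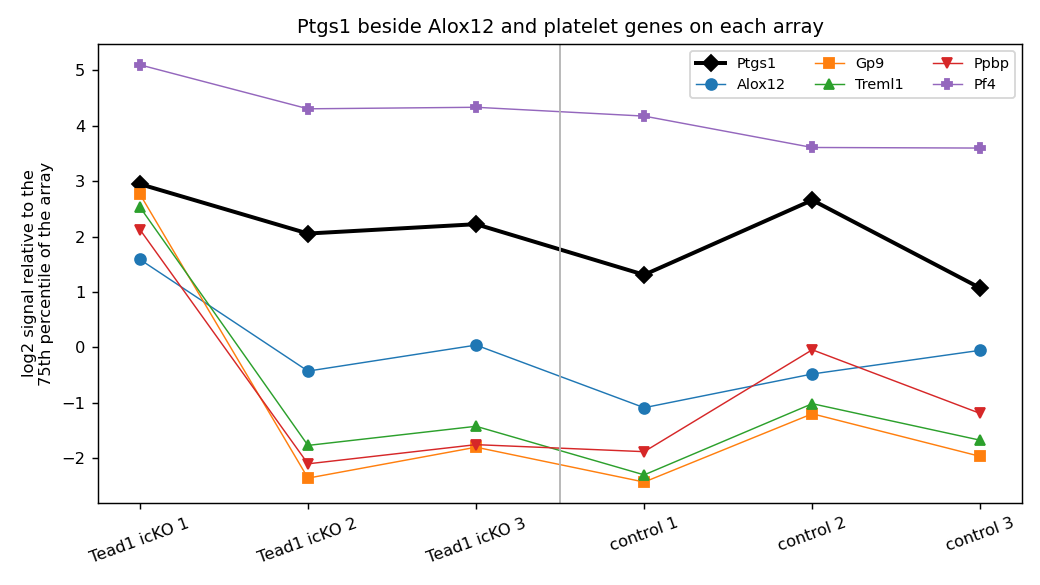
The log2 signals of Ptgs1, Alox12 and platelet genes are plotted on each array relative to its 75th percentile, Tead1 icKO hearts left of the vertical line and control hearts right of it. Gp9, Treml1 and Ppbp are above 2 in Tead1 icKO 1 and below 0 on the other 5 arrays, and Ptgs1 is highest in Tead1 icKO 1 and control 2.

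Ptgs2, the inducible cyclooxygenase, was near background in all hearts. It had -2.82, -3.72 and -3.68 in Tead1 icKO hearts, against -4.80, -5.50 and -5.11 in control hearts. Its probe is printed in 10 spots, of which 10, 7 and 2 were well above background in the Tead1 icKO hearts, against 1, 1 and 0 in the control hearts. The median spot signal was 45.3, 25.4 and 24.3 in Tead1 icKO, against 7.45, 5.13 and 7.03 in control. Every Tead1 icKO heart exceeded every control heart, but the probe counted as above background on 2 of 3 Tead1 icKO arrays and 0 of 3 control arrays, so it was not tested. No bound is given. Tead1 icKO 2 and 3 lay below the lowest signal well above background on control 1 (-3.53) and control 2 (-3.60).

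Among the terminal synthases, Ptgis rose and Ptges fell. Ptgis, the prostacyclin synthase, had 4.96, 4.85 and 4.86 in Tead1 icKO hearts, against 3.54, 2.87 and 3.19 in control hearts. The Tead1 icKO hearts lay close together and well above all controls. Ptgis rose by 1.69 ± 0.17 on the log2 scale (SE; limma adjusted p = 0.000947), which is 3.23-fold, and passed under all 19 alternative settings tried. The nearest profiles were those of Bok, Hspa1l and Mst1r, at distances of 0.08, 0.09 and 0.10. Fibroblast markers were higher in Tead1 icKO, while most smooth muscle and pericyte markers that passed were lower; their part in the Ptgis difference was not tested.

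Ptges, the inducible microsomal prostaglandin E synthase, had 5.07, 5.03 and 5.31 in Tead1 icKO hearts, against 5.60, 5.67 and 5.64 in control hearts. The controls lay within a narrow band above all Tead1 icKO hearts. Ptges fell by 0.50 ± 0.11 on the log2 scale (SE; limma adjusted p = 0.0118), so the control mean was 1.41-fold the Tead1 icKO mean. Median scaling ended the call (-0.34, adjusted p = 0.0725), as did scaling to spike-in probes (-0.15, adjusted p = 0.407), dropping the filter on dim probes (adjusted p = 0.0618) and the column block (-0.57, adjusted p = 0.144). The other Ptges probe was well above background on 1 array of each group and was not tested. It had -4.47, -4.44 and -3.34 in Tead1 icKO, against -3.56, -1.02 and -3.81 in control. Both probes stand for the same RefSeq transcript, yet their signals lay far apart. Which of them better measures Ptges is not known here, so the fall rests on the bright probe alone.

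Ptgds, the lipocalin-type prostaglandin D synthase, had 8.41, 7.49 and 8.61 in Tead1 icKO hearts, against 8.14, 8.06 and 8.01 in control hearts. Tead1 icKO 2 lay below all controls and the remaining Tead1 icKO hearts above them. The log2 difference was 0.10 ± 0.29 (SE; limma adjusted p = 0.797), with a 95% interval of -0.59 to 0.79. Without Tead1 icKO 2 it was 0.44 (adjusted p = 0.0378).

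On the leukotriene branch, Alox5ap rose while Ltc4s did not pass. Alox5ap, the membrane protein that hands arachidonic acid to 5-lipoxygenase, had 2.73, 2.59 and 2.42 in Tead1 icKO hearts, against 1.83, 1.21 and 1.32 in control hearts. The groups were clearly apart. Alox5ap rose by 1.13 ± 0.19 on the log2 scale (SE; limma adjusted p = 0.00461), which is 2.18-fold; the column block gave 1.41 (adjusted p = 0.0681). The nearest profiles were those of Rhoj, Tifa and Sat1, at distances of 0.06, 0.08 and 0.08. Alox5ap is known from macrophages and other leukocytes. Of leukocytes, only macrophages and mast cells had marker lists here. Of 11 tested macrophage markers 9 rose, while Fcgr1 (1.12, limma adjusted p = 0.0634) and Itgam (0.02, limma adjusted p = 0.892) did not pass. Csf1r, the receptor of the macrophage growth factor, differed by 1.098 and Ctss, a lysosomal protease, by 2.05. The part of macrophages and other leukocytes in the Alox5ap difference was not tested.

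Ltc4s, which joins leukotriene A with glutathione, had 1.80, 1.87 and 1.78 in Tead1 icKO hearts, against 2.04, 1.58 and 1.79 in control hearts. The groups overlapped, with a log2 difference of 0.01 ± 0.14 (SE; limma adjusted p = 0.950) and a 95% interval of -0.31 to 0.34. Mast cells, another known source of the enzyme, had mixed markers. Of 7 tested mast cell markers 3 rose and 1 fell, with sums of 5.16 to 6.92 in Tead1 icKO and 3.54 to 4.18 in control. Among those that rose, Cma1 was well above background in 0 of 3 control hearts and Cpa3 in 2 of 3. The calls of Cma1 and Cpa3 thus rest at least partly on control signals below background. Fcer1a and Ms4a2, subunits of the IgE receptor, were too dim to test.

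Hpgd, which oxidises prostaglandins to inactive products, had 0.09, 0.24 and -0.06 in Tead1 icKO hearts, against -0.29, -0.72 and -1.07 in control hearts. All Tead1 icKO values lay above all control values. Hpgd rose by 0.78 ± 0.21 on the log2 scale (SE; limma adjusted p = 0.0242), which is 1.72-fold, and its other probe differed by 0.83. The call passed under 13 of 19 alternatives. It was lost without control 2 (adjusted p = 0.0646), control 3 (0.59, adjusted p = 0.0542), Tead1 icKO 1 (adjusted p = 0.0578) or Tead1 icKO 2 (adjusted p = 0.0705), without the filter on dim probes (adjusted p = 0.0856) and with the column block (adjusted p = 0.0749).

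**Figure D4:**
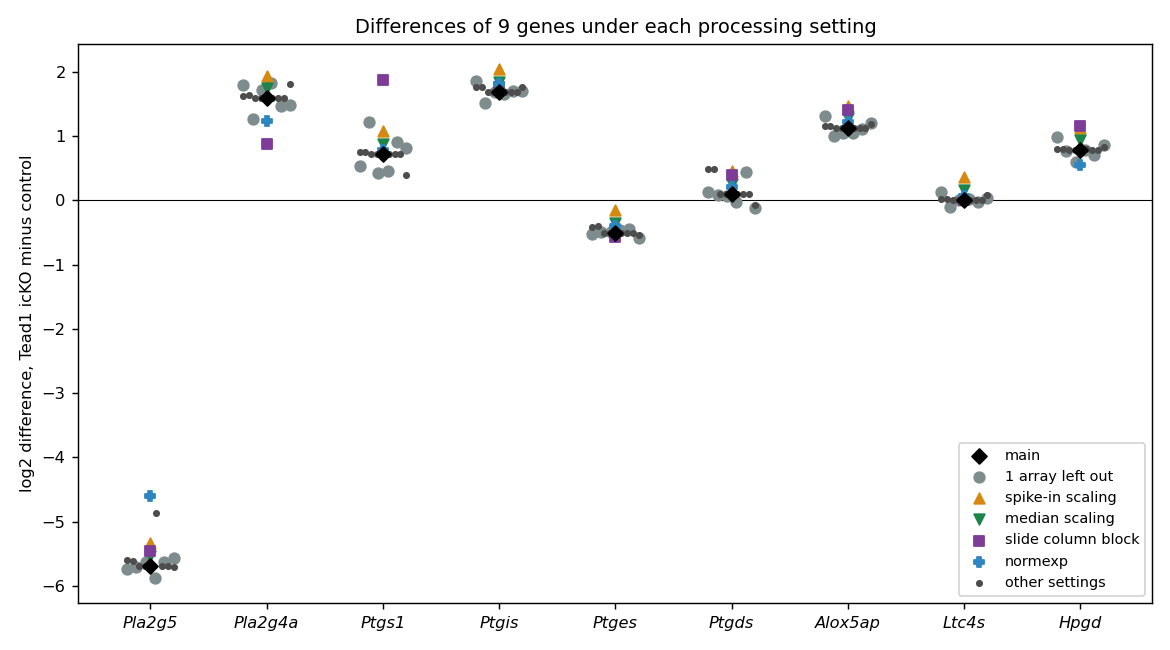
The log2 difference, Tead1 icKO minus control, of the 9 measured genes is plotted under each processing setting and with each array left out. Pla2g5 stays between -5.87 and -4.61 and Ptgis between 1.53 and 2.04, while Ptgds and Ltc4s lie on both sides of 0.

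Beyond the 10 genes, 88 other genes of the eicosanoid pathways were listed. Of these, 86 had a probe and 62 were tested. In Tead1 icKO hearts 15 rose, 15 fell and 32 did not pass, with a median log2 difference of -0.02. This is 48.4% called, 24.2% higher and 24.2% lower, against 48.2%, 20.3% and 27.9% of all named genes, so the lists as a whole lie near the background. The same background applies to the counts of each list below. Of the 62, 11 were below background on some arrays of a group, and 5 of these were called (Pla2g2d, Pla2g2e, Acsl3, Akr1c18 and Dpep2). The split moved with the scaling and with the background correction. With spike-in scaling 24 rose and 9 fell, with median scaling 16 rose and 12 fell, and with normexp 13 rose and 19 fell. Of all 22295 features, 6665 rose and 2334 fell with spike-in scaling, 4403 and 3660 with median scaling, and 3659 and 7684 with normexp.

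**Figure D5:**
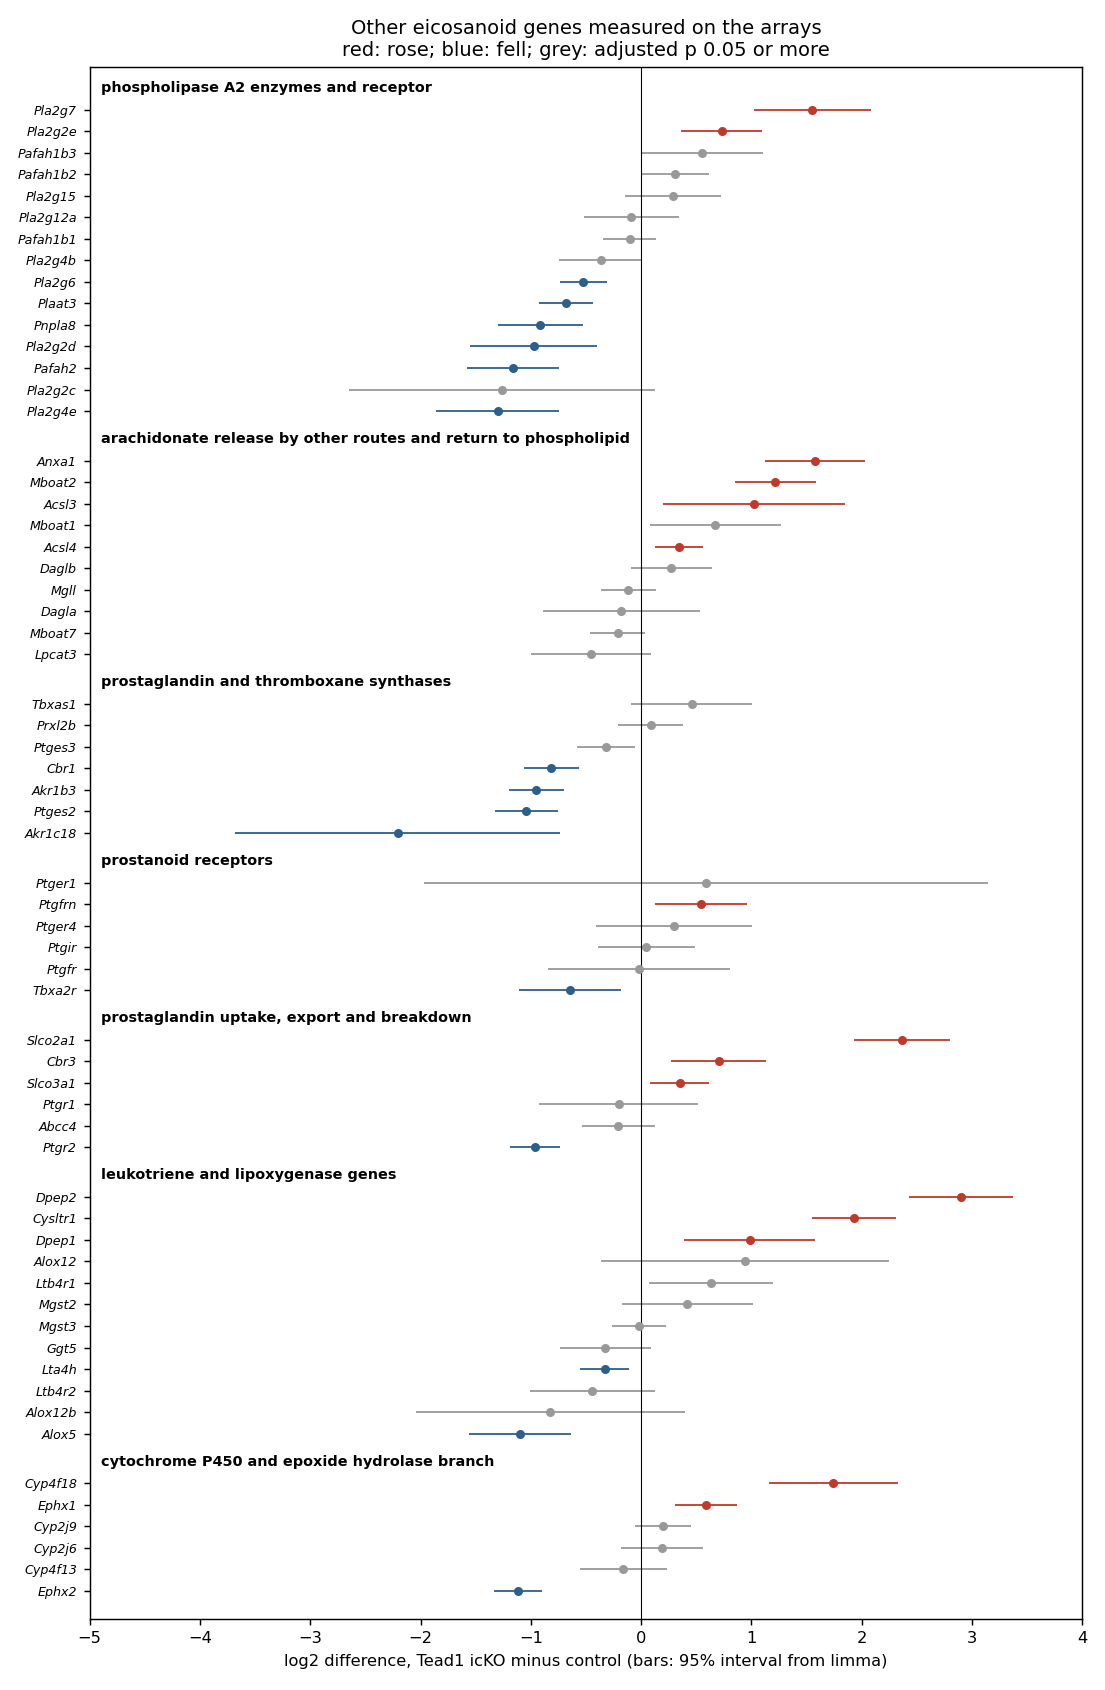
The log2 difference, Tead1 icKO minus control, with its 95% interval is plotted for the tested genes of the other eicosanoid lists, red for genes that rose, blue for genes that fell and grey for the rest. The 15 that rose and the 15 that fell lie on both sides of 0; Slco2a1, at 2.36, is among the largest rises. Genes below background in all hearts of a group, such as Dpep2 and Akr1c18, are drawn at their fitted value, which is no bound.

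Of 15 other tested phospholipase A2 genes, 2 rose and 6 fell. Pla2g7, a secreted enzyme of macrophages that cleaves platelet-activating factor, had 1.22, 0.86 and 0.72 in Tead1 icKO hearts, against -0.20, -0.87 and -0.79 in control hearts. It rose by 1.55 ± 0.22 (SE, log2; limma adjusted p = 0.00264). Pla2g2e, a secreted phospholipase A2, rose by 0.73 (adjusted p = 0.0103), but was well above background in 1 of 3 control hearts, and with normexp its difference was -0.07. Pafah2, an intracellular hydrolase of platelet-activating factor, had -1.41, -0.95 and -0.79 in Tead1 icKO hearts, against 0.22, 0.03 and 0.08 in control hearts, and fell by 1.16 (adjusted p = 0.00311). Plaat3, a phospholipase best known from adipose tissue, fell by 0.68 (adjusted p = 0.00309), and Pla2g6, a calcium-independent phospholipase, fell by 0.52 (adjusted p = 0.00504). With spike-in scaling Plaat3 and Pla2g6 differed by -0.33 (adjusted p = 0.0758) and -0.17 (adjusted p = 0.347), and neither passed with the column block.

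Of 10 genes tied to arachidonic acid release by other routes or to its return to phospholipid, 4 rose, 0 fell and 6 did not pass. Anxa1, a phospholipid-binding protein that inhibits phospholipase A2, had 5.04, 4.80 and 4.62 in Tead1 icKO hearts, against 3.51, 2.91 and 3.32 in control hearts. It rose by 1.58 ± 0.19 (SE, log2; limma adjusted p = 0.00148). Mboat2, a lysophospholipid acyltransferase, had 1.32, 1.36 and 1.29 in Tead1 icKO hearts, against 0.33, 0.20 and -0.21 in control hearts, and rose by 1.22 (adjusted p = 0.00180). Acsl4, which activates arachidonic acid with coenzyme A, rose by 0.35 (adjusted p = 0.0233); it no longer passed when control 1, control 3, Tead1 icKO 2 or Tead1 icKO 3 was left out, with adjusted p between 0.0520 and 0.0662. The related ligase Acsl3, which lies outside the rule for named genes, was well above background in 3 Tead1 icKO hearts and 1 of 3 control hearts. Its fitted difference of 1.02 (adjusted p = 0.0499) therefore rests partly on control signals below background.

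Of 7 other tested synthases, 0 rose and 4 fell, beside 27.9% lower among all named genes. Akr1b3, an aldose reductase that also makes prostaglandin F, had 5.26, 5.50 and 5.45 in Tead1 icKO hearts, against 6.34, 6.31 and 6.42 in control hearts. It fell by 0.95 ± 0.10 (SE, log2; limma adjusted p = 0.00110). Ptges2, another prostaglandin E synthase, had 2.63, 2.84 and 2.99 in Tead1 icKO hearts, against 3.91, 3.81 and 3.87 in control hearts, and fell by 1.04 (adjusted p = 0.00129). Cbr1, a carbonyl reductase of prostaglandins, fell by 0.82 (adjusted p = 0.00179). Each of these 3 passed under every alternative tried. Akr1c18, outside the rule for named genes and not well above background in any Tead1 icKO heart, was at least 2.80-fold dimmer there, and its adjusted p of 0.0274 rests on signals below background in those hearts. Tbxas1, the thromboxane synthase, differed by 0.46 (adjusted p = 0.147), and Hpgds was too dim to test.

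Of 6 tested prostanoid receptor genes, 1 rose and 1 fell. Tbxa2r, the thromboxane receptor, had -1.06, -0.51 and -0.49 in Tead1 icKO hearts, against 0.06, -0.28 and 0.09 in control hearts. It fell by 0.65 (limma adjusted p = 0.0348), a call lost without control 1, control 3 or Tead1 icKO 1 (adjusted p between 0.0547 and 0.101) and under scaling to the median (-0.49, adjusted p = 0.142) or to spike-in probes (-0.29, adjusted p = 0.279). Ptgfrn, which binds the prostaglandin F receptor, rose by 0.55 (adjusted p = 0.0422), a call lost without control 1, control 2 or any 1 of the Tead1 icKO hearts (adjusted p between 0.0609 and 0.113). Ptgir, the prostacyclin receptor, had 0.09, 0.11 and -0.19 in Tead1 icKO hearts, against 0.15, -0.41 and 0.13 in control hearts, and differed by 0.05 ± 0.18 (SE; adjusted p = 0.854). Ptger4, a receptor of prostaglandin E, differed by 0.30 (adjusted p = 0.444) and Ptgfr, the receptor of prostaglandin F, by -0.02 (adjusted p = 0.968). Ptgfr was well above background in 2 of 3 Tead1 icKO hearts, so its difference rests partly on a signal below background. Ptger1, another receptor of prostaglandin E, had -3.51, -3.65 and -3.36 in Tead1 icKO hearts, against -5.71, -1.44 and -5.13 in control hearts. Control 2 alone was high, and it was the only control heart well above background. The fitted difference was 0.59 (adjusted p = 0.675). Without control 2 it was 1.92 (adjusted p = 0.00343), a value set by control signals below background and not a measured size. Ptger2, Ptger3, Ptgdr and Ptgdr2 were too dim to test.

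Of 6 other genes of prostaglandin uptake, export and breakdown, 3 rose and 1 fell. Slco2a1, the transporter that takes prostaglandins up for breakdown by the Hpgd product, had 1.71, 1.20 and 1.77 in Tead1 icKO hearts, against -0.78, -0.65 and -0.98 in control hearts. It rose by 2.36 ± 0.18 (SE, log2; limma adjusted p = 0.000380), and the groups were far apart. Ptgr2, a reductase of 15-keto prostaglandins, had 3.59, 3.75 and 3.75 in Tead1 icKO hearts, against 4.72, 4.61 and 4.66 in control hearts, and fell by 0.96 (adjusted p = 0.000809). Cbr3, a carbonyl reductase, rose by 0.70 (adjusted p = 0.0205), a call lost without control 3, Tead1 icKO 1 or Tead1 icKO 2 (adjusted p between 0.0565 and 0.0607). Slco3a1, another prostaglandin transporter, rose by 0.35 (adjusted p = 0.0437), a call lost without control 1, control 2, Tead1 icKO 2 or Tead1 icKO 3 (adjusted p between 0.110 and 0.124).

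Of 12 other leukotriene and lipoxygenase genes, 3 rose and 2 fell. Cysltr1, a receptor of cysteinyl leukotrienes, had 0.90, 0.92 and 1.31 in Tead1 icKO hearts, against -0.80, -1.11 and -0.75 in control hearts. It rose by 1.93 ± 0.16 (SE, log2; limma adjusted p = 0.000477). Alox5, the 5-lipoxygenase itself, had 0.42, 1.07 and 0.92 in Tead1 icKO hearts, against 1.79, 2.09 and 1.83 in control hearts, and fell by 1.098 (adjusted p = 0.00559), opposite in sign to Alox5ap. Dpep2, a dipeptidase that trims leukotriene D, was above background in all 3 Tead1 icKO hearts and 0 of 3 control hearts, and was at least 2.48-fold brighter in Tead1 icKO. Its adjusted p of 0.000278 rests on control signals below background, and with normexp the log2 difference was 0.31 (adjusted p = 0.0479), under that bound. Dpep1, a dipeptidase that is also on the fibroblast marker list, rose by 0.98 (adjusted p = 0.0198), a call lost without control 2 (adjusted p = 0.0514) or control 3 (adjusted p = 0.0604). Lta4h, which makes leukotriene B, fell by 0.33 (adjusted p = 0.0289). That call was lost when any array but Tead1 icKO 1 was left out (adjusted p between 0.0511 and 0.0879), and with spike-in scaling the difference was 0.02.

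Of 6 tested genes of the cytochrome P450 and epoxide hydrolase branch, 2 rose and 1 fell. Ephx2, the soluble epoxide hydrolase that opens epoxides of arachidonic acid, had 3.83, 3.71 and 3.82 in Tead1 icKO hearts, against 4.86, 4.96 and 4.88 in control hearts, and fell by 1.11 ± 0.09 (SE, log2; limma adjusted p = 0.000448). Ephx1, the microsomal epoxide hydrolase, rose by 0.59 (adjusted p = 0.00835), with 0.40 (adjusted p = 0.244) under the column block. Cyp4f18, a hydroxylase of leukotriene B in mouse neutrophils, had 1.58, 1.06 and 0.62 in Tead1 icKO hearts, against -0.54, -0.61 and -0.83 in control hearts, and rose by 1.74 (adjusted p = 0.00253).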

How the data were processed

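Cy3-labelled copies of ventricle RNA were hybridised to one-colour arrays, per the labels' protocols. The scanner files deposited by the authors give each spot's intensity on a linear scale. Their software was Agilent Feature Extraction, version 11.0.1.1 per the file headers and 9.1 per the submitters' processing notes, and the array design was 028005. The processed signal was already background-subtracted. The authors' deposited value table also holds linear intensity, by a method not given in the sources used here, and served as an alternative.

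From each log2 processed signal, the 75th percentile over the 55681 non-control probes of that array was subtracted. Spots flagged as outliers were dropped before averaging the spots of a probe. The probes kept (26169) were those well above background in every heart of a group. RefSeq accessions named 26582 probes (GRCm38.p6), and each gene is represented by the brightest of its kept probes. Groups were compared with limma 3.58.1 in R 4.3.3 (lmFit and eBayes, group only), Benjamini-Hochberg adjusted over 22295 features, and the steps were tested on simulated data. P-values measure the spread between 3 arrays a group, whose number limits the precision. Where a group was below background on all arrays, the dim side of a bound is, on each array, its lowest signal well above background or the probe's own signal if higher, averaged over the group. Such bounds hold for the processed signal used here, and with normexp some differences were smaller.

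The genes, lists and tests were chosen with earlier results of these data known. Named genes are the 10 members; from each list, by smallest p, up to 3 called genes in each direction; each measured prostanoid receptor; Tead1; the 2 genes before and after Pla2g5 in order of annotated start; the nearest profiles (5 for Pla2g5, 3 for each other called gene with a 2-fold change); and the 3 genes with fitted differences just larger and just smaller than Pla2g5. Genes with provisional symbols (Gm, LOC, Rik or clone names) were left out when nearest profiles and nearest differences were sought. Marker genes, platelet genes, Tbxas1, Acsl3, Akr1c18 and Alox12 fall outside this rule for named genes. Normexp used the median spot and background signals, since the files used here hold no mean signal. Replicate numbers did not pair the hearts: deviations from the group means correlated at -0.05, -0.13 and -0.0013 between same-numbered arrays.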

Additional observations from a re-analysis of the deposited data

How the results depend on the processing

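Alternatives were normexp, scaling by quantiles, the median or spike-in probes, the authors' deposited value table, other filters and probe rules, trend and robust eBayes, blocks, and leaving out each array; the slide column block was chosen after seeing the data. In the main setting 9980 features were called, 35.8% of them higher in Tead1 icKO. Scaling to the median made that share 54.6% and scaling to spike-in probes 74.1%, as the median difference of all features moved to 0.02 and 0.21 from -0.14. Without the filter on dim probes 6123 features were called. With the slide column block, which leaves 2 residual degrees of freedom in place of 4, calls numbered 3077 features, 1 of the listed 10 genes (Ptgis) and 17 other eicosanoid genes, in place of 9980, 5 and 30. With the replicate number as a block they were 7885, 5 and 24. Leaving out each array gave 7546 to 9085 features, 4 to 5 listed genes and 23 to 32 other genes. Signs turned for some uncalled or weak differences: with normexp Pla2g2e -0.066, Ptger1 -0.29 and Ptger4 -0.087; with the slide row block Ptger1 -0.11, Ptgds -0.067 and Ptgfr 0.14; with the column block Ptger4 -0.0042 and Ptgir -0.041; and with spike-in scaling Lta4h 0.021. Ptgfr was 0.12 with quantile, 0.14 with median and 0.33 with spike-in scaling and 0.11 in the authors' table. Over arrays left out, Ptger1 ranged from -0.22 to 1.92, Ptgfr from -0.42 to 0.29, Ptgir from -0.14 to 0.14, Ltc4s from -0.10 to 0.13 and Ptgds from -0.12 to 0.44. The cause of these shifts was not tested. Signal near background limits, among others, Ptgs2, Ptger1, Ptgfr, Pla2g2d, Pla2g2e, Acsl3, Akr1c18, Dpep2 and the second probes of Pla2g5 and Ptges.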

Other observations

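Single arrays stood apart from both others of their group by 1.5 log2 units or more at many probes. The number of probes that were high was 899, 370 and 747 in Tead1 icKO 1 to 3, and 360, 940 and 440 in control 1 to 3. Tead1 icKO 1 was high for Alox12 and for the platelet genes Gp1ba, Gp9, Itga2b, Ppbp and Treml1. Control 2 was high for Alox12b, Ptger1, Ptger3 and the dim Ptges probe, and Tead1 icKO 3 for Pla2g4f. These genes were chosen after their values were seen. Among the listed eicosanoid genes, 16 had more than 1 kept probe, and 0 of these had probes that differed in sign.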
